A study of Mus musculus with 6 samples.

Results

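The AP-1 family was followed through 9 genes named for this purpose, Fos, Fosb, Fosl1, Fosl2, Jun, Junb, Jund, Atf3 and Batf3, out of 42256 Ensembl genes in the count table. They were matched by symbol in a GENCODE annotation of the mouse build mm10, and all 9 were found. All 9 also passed the filter on low counts, which left 15840 genes for testing. On mm10 the FOS genes lie apart, with Fos (ENSMUSG00000021250) at chr12:85473890-85477273 and Fosb (ENSMUSG00000003545) at chr7:19302696-19310051. Fosl1 (ENSMUSG00000024912) is at chr19:5447547-5455946 and Fosl2 (ENSMUSG00000029135) at chr5:32135801-32157842. Jun (ENSMUSG00000052684) is at chr4:95049034-95052222, and Junb (ENSMUSG00000052837) and Jund (ENSMUSG00000071076) share a chromosome, at chr8:84974484-84978718 and chr8:70698949-70700616. Atf3 (ENSMUSG00000026628) at chr1:191170296-191218039 is near Batf3 (ENSMUSG00000026630) at chr1:191097847-191108945.

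RNA was measured in PDGFRa+ cells, the fibroblast-like fraction obtained by flow sorting of collagenase-digested scar from mouse hearts 7 days after injury, in a study of myocardial infarction. In the 4 Htr2b_cKO libraries the mice were Htr2bfl/flPostnMCM/+, so that a tamoxifen-activated Cre at 1 Postn allele could delete the floxed serotonin receptor gene Htr2b in cells that use Postn, the periostin gene of activated fibroblasts. The 2 control libraries came from Htr2bfl/fl mice, which carried the same floxed gene and no Cre. Mice of both groups were of mixed 129S2/C57Bl6 strain and were fed chow with tamoxifen, beginning 1 week ahead of the injury and continuing to harvest. Their age is not given in the sources used here. Because no control carried the Cre or the altered Postn allele, loss of Htr2b, presence of the Cre and that allele cannot be told apart. The design text counts 4 experimental and 2 control animals, and a library here stands for an animal.

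AP-1 is a family of transcription factors that bind DNA as pairs held together by a leucine zipper. FOS proteins do not pair with themselves and need a JUN partner, whereas JUN proteins can pair with each other, with FOS proteins or with ATF proteins. Fos, Fosb, Jun, Junb and Atf3 are early response genes that cells switch on within minutes of growth factors, strain or stress. In fibroblasts AP-1 drives genes of matrix turnover, cytokines and the cell cycle, and enzymatic digestion of tissue is known to induce the early members.

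Totals ran from 28533427 to 37392496 estimated counts per library. The labelled cell type was checked against 9 fibroblast marker genes, Pdgfra, Col1a1 and Postn among them, which were all detected. They summed to 76533 to 129562 CPM, that is counts scaled to the same library size, in Htr2b_cKO libraries and to 91689 and 115648 CPM in control libraries. Most of this sum came from the collagen genes Col3a1 and Col1a1, which averaged 47587 and 29298 CPM in Htr2b_cKO and 44188 and 27717 CPM in control libraries. Htr2b had 0 to 29 estimated counts in Htr2b_cKO and 7 to 13 in control libraries. Most of all came from the library labelled Htr2b_cKO 3, above both controls, so no loss of Htr2b was seen in that library. The reason was not tested. Over the groups the log2 fold change of Htr2b was -0.11 (SE 1.18, edgeR adjusted p = 0.982). Without the library labelled Htr2b_cKO 3, Htr2b did not pass the filter on low counts. Its estimated counts were then 0, 3 and 4 in Htr2b_cKO, against 13 and 7 in control libraries. Postn, the gene that carries the Cre, averaged 1542 ± 561 CPM in Htr2b_cKO and 1947 ± 512 CPM in control libraries (SD, n = 4 and n = 2; edgeR adjusted p = 0.774). The library labelled Htr2b_cKO 4 stood apart in sex, with 0.267 CPM of Xist and 139 CPM over 4 Y-linked genes, against at least 385 CPM of Xist in the other libraries. In bulk libraries such as these, fewer cells of a type and less RNA per cell cannot be told apart.

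Fos, Fosb and Jun shared both their highest library and their lowest library, and for this reason the starts of these 3 genes are shown. The windows are RefSeq promoters of build GRCm38.p6, running from 250 bases before to 50 bases after the annotated start, on the strand of the gene. Fos lies at chr12:85473640-85473939 on the plus strand, Fosb at chr7:19309996-19310295 on the minus strand and Jun at chr4:95052173-95052472 on the minus strand. Capitals mark exact matches, on either strand, to TGACG, which is the core shared by cyclic AMP response elements, to TGACATCA, and to TATAAA.
Fos: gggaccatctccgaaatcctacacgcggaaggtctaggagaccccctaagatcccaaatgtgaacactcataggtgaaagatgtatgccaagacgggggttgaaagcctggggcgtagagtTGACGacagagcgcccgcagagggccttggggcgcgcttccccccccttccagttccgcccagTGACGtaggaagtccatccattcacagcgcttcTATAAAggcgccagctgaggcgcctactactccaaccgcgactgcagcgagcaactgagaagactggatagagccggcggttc
Fosb: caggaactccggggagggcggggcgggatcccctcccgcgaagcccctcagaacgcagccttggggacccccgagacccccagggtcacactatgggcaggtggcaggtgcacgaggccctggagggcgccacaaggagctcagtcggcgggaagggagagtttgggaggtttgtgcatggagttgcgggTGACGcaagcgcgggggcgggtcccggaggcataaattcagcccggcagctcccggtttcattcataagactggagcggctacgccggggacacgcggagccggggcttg
Jun: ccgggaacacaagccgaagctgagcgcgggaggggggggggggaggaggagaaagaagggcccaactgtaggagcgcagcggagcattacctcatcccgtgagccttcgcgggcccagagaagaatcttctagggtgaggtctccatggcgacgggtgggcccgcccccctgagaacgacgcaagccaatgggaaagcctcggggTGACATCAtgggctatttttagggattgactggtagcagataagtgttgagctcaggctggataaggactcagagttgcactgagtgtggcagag

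Of the 9 members, 8 had such a window, and Fosl1 had none in the table used. TGACG was found in the windows of Fos, Fosb, Junb and Atf3, and 20.8% of all 32851 windows of this length hold it. In Fos it ran from -129 to -125 and from -66 to -62 relative to the start, and in Fosb from -60 to -56. TGACATCA was found in Jun alone among the members, from -45 to -38, and 3.62% of all windows hold it. TATAAA was found in Fos, from -33 to -28, and in Junb, from 1 to 6, and in 13.6% of all windows. The palindromes TGACGTCA, which contains TGACG, and TGANTCA were in no member window, and in 1.79% and 7.81% of all windows. RefSeq and GENCODE place the gene start at the same base for Fos and Jun and at different bases for the other 6. For Jund the RefSeq start was 70697739 and the GENCODE start 70698949, and for Atf3 they were 191183333 and 191218039. For Junb, on the minus strand, they were 84978748 and 84978718, so its TATAAA match lies before the GENCODE start. The windows of those 6 therefore describe the RefSeq start only.

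The 9 AP-1 genes spanned nearly the whole range of abundance in these cells. Fos ranked 24th of the 15840 tested genes by mean CPM, Jun 27th, Junb 35th, Fosb 44th and Jund 100th, whereas Atf3 ranked 253rd, Fosl2 585th, Fosl1 8874th and Batf3 13781st. Together the 9 members made up 0.917%, 0.923%, 0.935% and 1.15% of scaled counts in Htr2b_cKO libraries 1 to 4 and 0.802% and 0.962% in control libraries 1 and 2. The highest share was that of Htr2b_cKO 4 and the lowest that of control 1, and the other 4 libraries lay within a narrow span that included control 2.

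To compare genes with each other, CPM was divided by exon length in kilobases, taken over all annotated exons of the gene. On this scale of levels the order was Fos (939 CPM per kb), Junb (790), Jun (635), Jund (622), Fosb (262), Atf3 (229), Fosl2 (26.0), Fosl1 (5.96) and Batf3 (0.545), each a mean over 6 libraries. Fos stood above Junb, and Junb above Jun, in 6 of 6 libraries, although Fos exceeded Junb by as little as 1.03 times in 1 of them. Jun and Jund were not separated, with Jun the higher in 4 of 6 libraries, and neither were Fosb and Atf3, with Fosb the higher in 4 of 6. From Atf3 down to Fosl2 the step was 6.20 to 13.1 times, and it was present in every library. Within the FOS subfamily Fos made up 71.1% to 79.5% of the summed CPM per kb, Fosb 18.0% to 25.9%, Fosl2 1.76% to 2.35% and Fosl1 0.184% to 0.629%. The 3 JUN genes were nearly even, at 28.1% to 33.9% for Jun, 37.0% to 42.7% for Junb and 28.5% to 32.0% for Jund. Because Fosb and Fosl2 have long exons and several annotated transcripts, a level per length depends on which transcript is used, and counts per gene cannot separate full-length Fosb from its shorter splice form.

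None of the 9 AP-1 genes was called different between Htr2b_cKO and control libraries. So few of all genes were called that 0 calls among 9 says little about the members. By the quasi-likelihood F test of edgeR, with Benjamini-Hochberg adjustment over all tested genes, 0 of 9 passed at an adjusted p of 0.05, where 0.0189% of all genes did (0.0126% higher and 0.00631% lower in Htr2b_cKO). At an unadjusted p of 0.05 again 0 of 9 passed, where 9.59% of all genes did (6.6% higher and 2.99% lower). DESeq2 called 0 of 9 and had 1, Fosb, with an unadjusted p under 0.05. So had edgeR with no filter (unadjusted p of Fosb 0.0378) and after the GC and length correction described below (0.0349), each with 0 of 9 called. Among all genes tested, 1394 of 23769, 1611 of 23813 and 820 of 15840 were under 0.05 in these fits. In the main edgeR fit log2 fold changes, Htr2b_cKO minus control, were above 0 for 7 members and below 0 for Jund and Batf3. Their median was 0.12, beside a median of -0.00012 over all tested genes. That median was -0.04 without control 1, 0.32 without control 2 and 0.02 without both the libraries labelled Htr2b_cKO 3 and Htr2b_cKO 4.

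**Figure D1:**
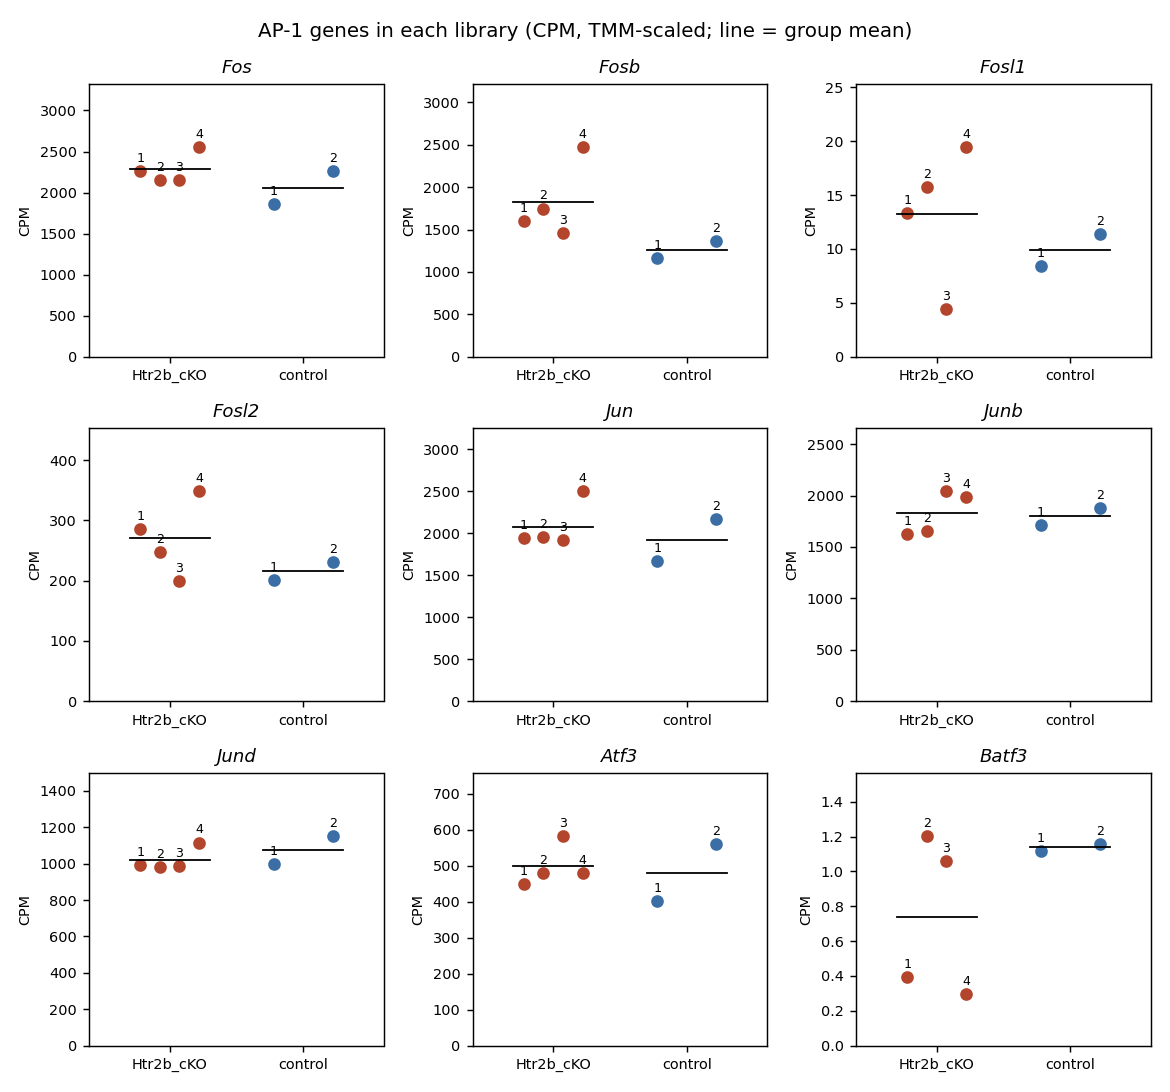
Level of each of the 9 AP-1 genes in each library, in CPM on TMM-scaled library sizes, on a linear axis from 0. Each point is a library with its replicate number, and each line is the group mean. Fosb is the only panel in which the 4 Htr2b_cKO libraries lie wholly above both control libraries.

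Fos, the founding member and the partner of JUN proteins in the classical AP-1 pair, had 2257, 2153, 2155 and 2559 CPM in Htr2b_cKO libraries 1 to 4, against 1857 and 2263 CPM in control libraries 1 and 2. Control 2 lay above 3 of the 4 Htr2b_cKO libraries, so the groups overlapped. Their difference was 0.15 on the log2 scale (SE 0.18, edgeR adjusted p = 0.830). It was 0.01 without control 1 and 0.30 without control 2.

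Fosb encodes a FOS protein that accumulates on repeated stimulation in its shorter form. Its level was 1601, 1748, 1457 and 2477.5 CPM in Htr2b_cKO libraries 1 to 4, against 1165 and 1362 CPM in control libraries. All 4 Htr2b_cKO libraries were above both controls, and the library labelled Htr2b_cKO 4 was the farthest above. Complete separation upward of this kind occurred in 10.6% of all tested genes and downward in 8.98%, and Fosb was the 1 member among 9 with either. The fitted difference was 1.44-fold (log2 fold change 0.53, SE 0.24, edgeR adjusted p = 0.548, unadjusted p = 0.0610), with 2 SEs reaching from 0.04 to 1.02. Without the library labelled Htr2b_cKO 4 the log2 fold change was 0.34, without the library labelled Htr2b_cKO 3 it was 0.63, and without both it was 0.41. The adjusted p over 13 alternative settings ran from 0.335 to 0.999. With 4 against 2 libraries an exact permutation test has 15 splits and cannot give a p below 0.0667.

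Fosl2 and Fosl1 encode the FOS-related proteins FRA-2 and FRA-1, which appear later after stimulation than FOS. Fosl2 had 285, 248, 199.7 and 348 CPM in Htr2b_cKO libraries 1 to 4, against 200.2 and 230.4 CPM in control libraries. Of the Htr2b_cKO libraries 3 were above both controls, and the library labelled Htr2b_cKO 3 was just below both. Fosl2 thus had a log2 fold change of 0.33 (SE 0.22, edgeR adjusted p = 0.667). It was 0.46 without the library labelled Htr2b_cKO 3, 0.18 without the library labelled Htr2b_cKO 4 and 0.31 without both.

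Fosl1 showed the widest spread among the members with more than 100 counts in every library. It had 13.4, 15.7, 4.38 and 19.5 CPM in Htr2b_cKO libraries 1 to 4, against 8.43 and 11.4 CPM in control libraries. Lowest of all 6 was the library labelled Htr2b_cKO 3, and the other 3 Htr2b_cKO libraries were the highest, a 4.45-fold range within the group. Exact Poisson 95% intervals, for counting error only, were 3.69 to 5.15 CPM for that library and 18.0 to 21.0 CPM for the library labelled Htr2b_cKO 4. For the groups this gave a log2 fold change of 0.43 (SE 0.53, edgeR adjusted p = 0.830). It was 0.73 without the library labelled Htr2b_cKO 3, where the adjusted p was 0.295, 0.18 without the library labelled Htr2b_cKO 4, 0.22 without control 1, 0.66 without control 2 and 0.57 without both the libraries labelled Htr2b_cKO 3 and 4. In the edgeR fit that left out only the library labelled Htr2b_cKO 3, Fosb, Fosl1 and Fosl2 each had an unadjusted p under 0.05. So did 1961 of all 15599 genes tested in that fit, and none of the 3 passed after adjustment.

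Jun, the partner that lets FOS proteins bind DNA, had 1944, 1955, 1916 and 2503 CPM in Htr2b_cKO libraries 1 to 4, against 1674 and 2166 CPM in control libraries. Of the 4 Htr2b_cKO libraries, 3 lay close together between the controls, and the library labelled Htr2b_cKO 4 lay above both. On the log2 scale the groups differed by 0.12 (SE 0.20, edgeR adjusted p = 0.886). Without control 1 it was -0.06 and without control 2 it was 0.32. Omitting the library labelled Htr2b_cKO 4 gave 0.014.

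Junb, an early gene whose product often restrains JUN, had 1629, 1653, 2043 and 1983 CPM in Htr2b_cKO libraries 1 to 4, against 1718 and 1875 CPM in control libraries. Here the first pair of Htr2b_cKO libraries was below both controls and the other pair above both. Between the group means lay 0.02 on the log2 scale (SE 0.18, edgeR adjusted p = 0.976), with 2 SEs reaching from -0.34 to 0.39.

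Jund, the JUN gene that resting cells express steadily, was the most even member. It had 995, 979, 988 and 1116 CPM in Htr2b_cKO libraries 1 to 4, against 998 and 1153 CPM in control libraries, so that the highest of the 6 libraries was 1.18 times the lowest. Control 2 was the highest and the Htr2b_cKO values overlapped the controls. Jund's log2 fold change of -0.08 (SE 0.16, edgeR adjusted p = 0.904) had 2 SEs reaching from -0.39 to 0.24.

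Atf3, a stress-induced factor that pairs with JUN proteins and can repress its own gene, had 449, 480.0, 584 and 481 CPM in Htr2b_cKO libraries 1 to 4, against 402 and 559.8 CPM in control libraries. Control 1 was the lowest and the library labelled Htr2b_cKO 3 the highest, and the groups overlapped. Its log2 fold change of 0.05 (SE 0.19, edgeR adjusted p = 0.950) ran from -0.17 without control 1 to 0.32 without control 2.

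Batf3, which has a leucine zipper but no activation domain and is needed for a class of dendritic cells in mice, was near the limit of detection. It had 0.392, 1.20, 1.06 and 0.297 CPM in Htr2b_cKO libraries 1 to 4, from 11, 40, 35 and 10 estimated counts, against 1.12 and 1.16 CPM in control libraries, from 43 and 32. Libraries labelled Htr2b_cKO 1 and 4 were low and the other Htr2b_cKO libraries were level with the controls. Exact Poisson 95% intervals, which cover counting error only, were 0.196 to 0.701 CPM for Htr2b_cKO 1 and 0.810 to 1.51 CPM for control 1. Batf3 had a log2 fold change of -0.60 (SE 0.59, edgeR adjusted p = 0.778), which was -0.33 without the library labelled Htr2b_cKO 4 and -0.94 without the library labelled Htr2b_cKO 2. Of 7 dendritic cell markers, those of the class that uses Batf3 were at or near 0, with Xcr1 at 0 in 5 of 6 libraries and Clec9a at no more than 0.453 CPM, both picked out after their values were seen. The broader markers were detected in all libraries, Zbtb46 at 10.3 to 12.8 CPM in Htr2b_cKO and 14.1 and 16.5 CPM in control libraries, and Itgax at 1.63 to 2.81 CPM in Htr2b_cKO and 2.65 and 1.01 CPM in control libraries. Macrophage markers summed to 780.0 and 334 CPM in the libraries labelled Htr2b_cKO 1 and 4, the ones low in Batf3, to 2101 and 3951 CPM in those labelled 2 and 3, and to 2416 and 757 CPM in the control libraries; their part in the Batf3 values was not tested.

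**Figure D2:**
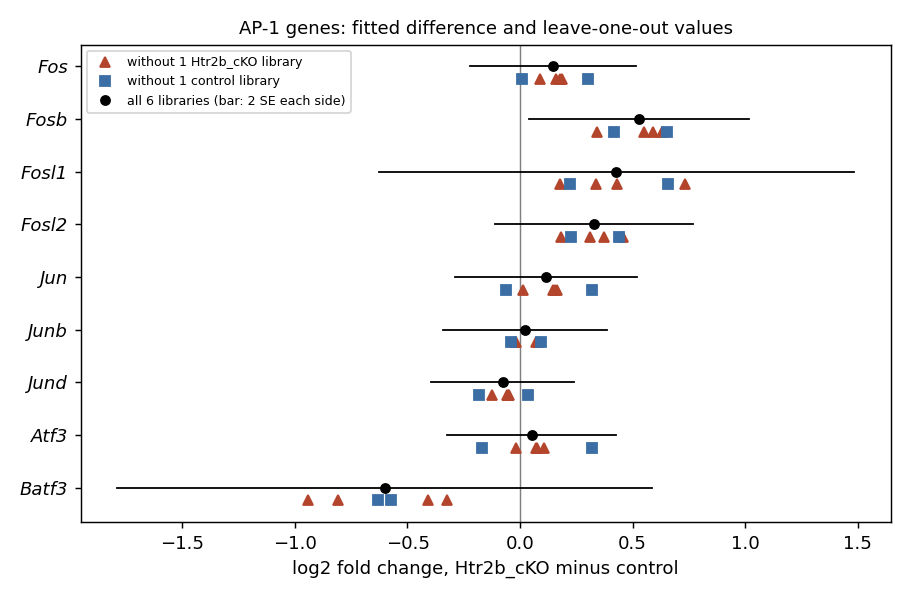
Log2 fold change, Htr2b_cKO minus control, of the 9 AP-1 genes. Black points are fits over all 6 libraries with bars of 2 SEs on each side, triangles leave out 1 Htr2b_cKO library and squares leave out 1 control library. The bar of Fosb stops at 0.04, just above 0, although its edgeR unadjusted p was 0.0610, not under 0.05. Bars of the other 8 genes cross 0.

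The members did not move as a block across libraries. Highest of 6 for 5 members was the library labelled Htr2b_cKO 4, for Fos, Fosb, Fosl1, Fosl2 and Jun, and it was the lowest for Batf3. Control 1 was the lowest for Fos, Fosb, Jun and Atf3. Both directions met in the library labelled Htr2b_cKO 3, with the highest Junb and Atf3 and the lowest Fosl1 and Fosl2. Relative to the mean of the controls on the log2 scale, Fosb in that library stood at 0.21, Fosl2 at -0.11 and Atf3 at 0.30, whereas the library labelled Htr2b_cKO 4 had 0.98, 0.70 and 0.02 for the same genes.

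**Figure D3:**
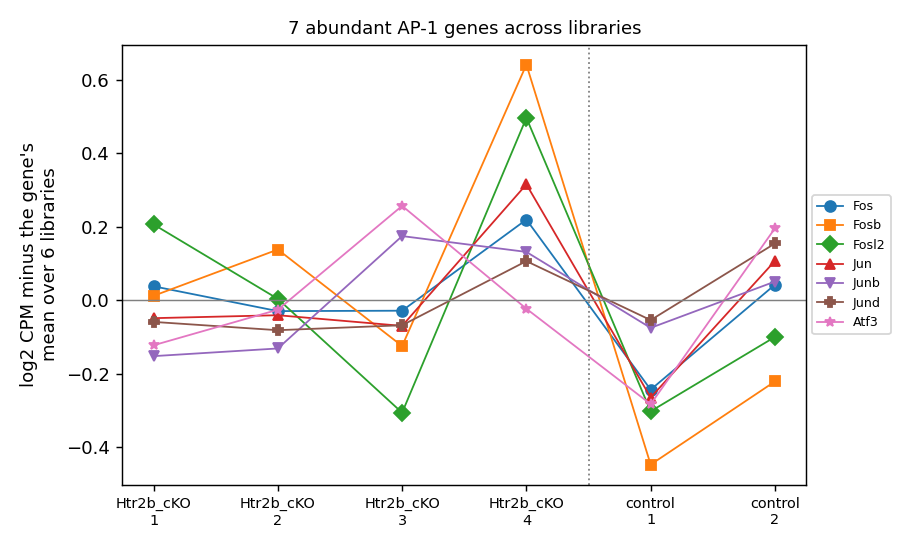
Log2 CPM of 7 abundant AP-1 genes minus each gene's mean over the 6 libraries, with Htr2b_cKO libraries left of the dotted line and control libraries right of it. Lines join the libraries only to guide the eye. Fosb and Fosl2 peak in the library labelled Htr2b_cKO 4, and Junb and Atf3 in the library labelled Htr2b_cKO 3.

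Ratios within a library, which do not depend on its scaling, were computed for 10 pairs of members and are given as a description, since pairs were picked out after their values were seen. The groups overlapped in 8 of the 10, and lay apart in Fosb over Fos and in Jund over Jun. Of all single genes tested, 19.6% lay apart between the groups, Fosb among them. Several of the ratios share a gene, so they are not independent. Fosb over Fos was 0.710, 0.812, 0.676 and 0.968 in Htr2b_cKO libraries 1 to 4, against 0.627 and 0.602 in control libraries. These values lay above both controls in each Htr2b_cKO library. Jund over Jun was 0.512, 0.501, 0.516 and 0.446 in Htr2b_cKO libraries, against 0.596 and 0.533 in control libraries, with no overlap in the other direction. The summed CPM per kb of the 4 FOS genes over that of the 3 JUN genes was 0.654, 0.641, 0.563 and 0.661 in Htr2b_cKO libraries, against 0.535 and 0.554 in control libraries. Fos over Jun overlapped, at 1.16, 1.10, 1.12 and 1.02 in Htr2b_cKO libraries and 1.11 and 1.04 in control libraries.

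**Figure D4:**
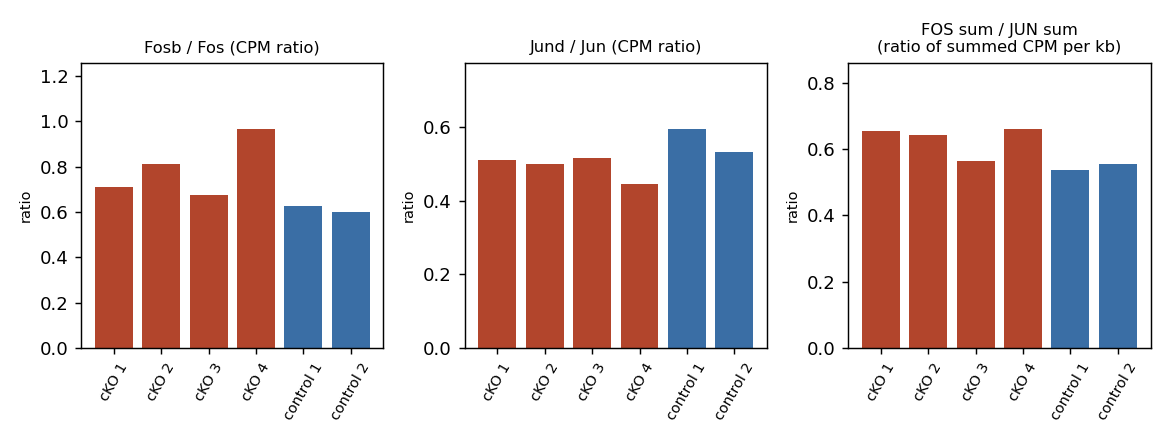
Ratios between AP-1 genes in each library, with Htr2b_cKO bars in red and control bars in blue, from 0. The left and middle panels are ratios of CPM and the right panel is a ratio of summed CPM per kb. Fosb over Fos is 0.676 or more in Htr2b_cKO libraries and 0.627 or less in control libraries. Of all single genes tested, 19.6% lay wholly apart between the groups.

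Correction for GC content and exon length together changed the sizes of these differences. The transcripts of the members hold 51.2% (Atf3) to 67.1% (Jund) G and C. When each library was corrected for GC content and exon length, the median log2 fold change of the 9 members was 0.30 and 8 of 9 were above 0, Jund with 0.19 included. None passed the adjusted test there, where Fosb had a log2 fold change of 0.64 (edgeR adjusted p = 0.938, unadjusted p = 0.0349).

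None of the other basic leucine zipper genes, which can pair with JUN or FOS proteins or bind related sites, was called. Of all tested genes only 0.0189% were called, so 0 calls in this list or the lists below says little about their genes. Among the 15 basic leucine zipper genes, 10 had a log2 fold change above 0 and 5 below, with a median of 0.06 (edgeR, 0 called). Atf2, a stress kinase target that pairs with JUN, averaged 38.9 ± 6.05 CPM in Htr2b_cKO and 28.5 ± 7.46 CPM in control libraries (SD, n = 4 and n = 2; edgeR adjusted p = 0.541). Creb1, which binds cyclic AMP response elements, averaged 34.6 ± 4.35 CPM and 26.3 ± 7.60 CPM in the same groups (edgeR adjusted p = 0.583). With the correction for GC content and length described above, the log2 fold change of Atf2 was 0.019, against 0.46 before it, and that of Creb1 0.0028, against 0.40 before it. Batf, a relative of Batf3 used by lymphocytes, was at 2.49 to 4.53 CPM in Htr2b_cKO and at 5.33 and 4.84 CPM in control libraries (edgeR adjusted p = 0.590).

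Among 23 kinases and factors that act upstream of AP-1, 13 were above 0 and 10 below, with a median of 0.04 and 0 called by edgeR. Map2k3, a kinase of the p38 pathway, had 42.2 ± 2.55 CPM in Htr2b_cKO and 51.6 ± 3.01 CPM in control libraries (edgeR adjusted p = 0.520). Mapk8, the JUN N-terminal kinase JNK1, had 20.3 ± 2.08 CPM in Htr2b_cKO and 15.5 ± 2.43 CPM in control libraries (log2 fold change 0.39, edgeR adjusted p = 0.525), and its estimate turned to -0.14 after the GC and length correction. Mapk3, which is ERK1, had 87.2 ± 5.07 CPM and 105 ± 13.8 CPM in the same groups (edgeR adjusted p = 0.575). The estimates of Map2k3 and Mapk3 were -0.11 and -0.032 after that correction, against -0.29 and -0.27 before it. Groups did not overlap for 7 of the 23 genes, 4 with Htr2b_cKO above and 3 below, where 19.6% of all genes did not overlap.

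Feedback inhibitors of these kinases and of early transcripts were split 9 above and 7 below, with a median of 0.05 and 0 of 16 called by edgeR. Spred1, a RAS pathway inhibitor, had 78.0 ± 11.3 CPM in Htr2b_cKO and 62.4 ± 11.8 CPM in control libraries. Dusp6, the phosphatase of ERK, had 38.4 ± 3.79 CPM and 45.1 ± 5.58 CPM, and Dusp16, a phosphatase of JNK, had 38.2 ± 11.7 CPM and 27.5 ± 8.33 CPM in the same groups. Their edgeR adjusted p values were 0.608, 0.650 and 0.678.

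Of 20 known AP-1 target genes, Fosl1 among them, 12 were above 0 and 8 below, with a median of 0.27, and 0 were called by edgeR. The 3 with the smallest p went in different directions. Mmp9, a gelatinase, had a log2 fold change of -0.79 (SE 0.26, edgeR adjusted p = 0.427), which was -0.30 without control 1 and -1.15 without control 2. Control 1 had the highest summed markers of neutrophils (104 CPM), lymphocytes (17.5 CPM), endothelial cells (235 CPM), mural cells (117 CPM) and cardiomyocytes (33.6 CPM). The part of these cells in the Mmp9 values was not tested. Ptgs2, the inducible cyclooxygenase gene, had 213, 304, 235 and 402 CPM in Htr2b_cKO libraries 1 to 4, against 116 and 239 CPM in control libraries (log2 fold change 0.70, SE 0.36, edgeR adjusted p = 0.591), and its estimate was 0.27 without control 1 and 1.32 without control 2. Spp1, the osteopontin gene, averaged 304 ± 114 CPM in Htr2b_cKO and 169.8 ± 61.6 CPM in control libraries (edgeR adjusted p = 0.606).

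None of the early genes that tissue digestion is known to induce together with AP-1 was called, where 0.0189% of all tested genes were. Of 28 such genes outside AP-1, 20 were above 0 and 8 below, and the median of these estimates was 0.17 (edgeR, 0 called). Nr4a2, an early nuclear receptor, had 50.8, 69.6, 39.0 and 71.1 CPM in Htr2b_cKO libraries 1 to 4, against 26.6 and 40.2 CPM in control libraries (log2 fold change 0.79, SE 0.29, edgeR adjusted p = 0.461), with an estimate of 0.52 without control 1. Hsp90aa1, a chaperone, averaged 513 ± 79.5 CPM in Htr2b_cKO and 363 ± 97.4 CPM in control libraries, and Egr2, a zinc finger factor, 57.0 ± 13.3 CPM and 39.5 ± 8.37 CPM (edgeR adjusted p of 0.520 and 0.544). The summed CPM of the 28 genes was 11819, 13004, 10963 and 14544 in Htr2b_cKO libraries 1 to 4, against 10278 and 13080 in control libraries. Its highest library, the one labelled Htr2b_cKO 4, and its lowest, control 1, were those of the AP-1 sum, which stood at 11487.5 and 8023 CPM there. Time in digestion is not given for single libraries in the sources used here, and its part in the AP-1 levels was not tested.

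Summed marker transcripts of other cell types differed between libraries along with some of these values. The library labelled Htr2b_cKO 4, with the highest AP-1 sum, had the most fibroblast marker transcript, 129562 CPM, and the least macrophage marker transcript, 334 CPM. The library labelled Htr2b_cKO 3, with the lowest Fosl1 and Fosl2, had the least fibroblast marker transcript, 76533 CPM. It also had the most macrophage marker transcript, 3951 CPM, over 8 genes that were all detected. Its AP-1 sum of 9348.5 CPM was above those of the libraries labelled Htr2b_cKO 1 and 2, at 9173 and 9233 CPM. These had more fibroblast marker transcript, 121094 and 111905 CPM, and less macrophage marker transcript, 780 and 2101 CPM. Endothelial markers summed to 44.1 to 88.1 CPM in Htr2b_cKO libraries, against 235 and 46.6 CPM in control libraries, and control 1, the higher of these, had the lowest Fos, Fosb, Jun and Atf3. Summed markers of neutrophils were at 27.6 to 81.0 CPM in Htr2b_cKO against 104 and 36.4 CPM in control libraries, those of lymphocytes at 1.39 to 9.45 against 17.5 and 5.50 CPM, those of dendritic cells at 12.7 to 16.7 against 17.2 and 19.1 CPM, mural cells at 68.7 to 95.9 against 117 and 50.3 CPM and cardiomyocytes at 10.6 to 26.5 against 33.6 and 9.29 CPM. The part of these cells in the AP-1 values was not tested.

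**Figure D5:**
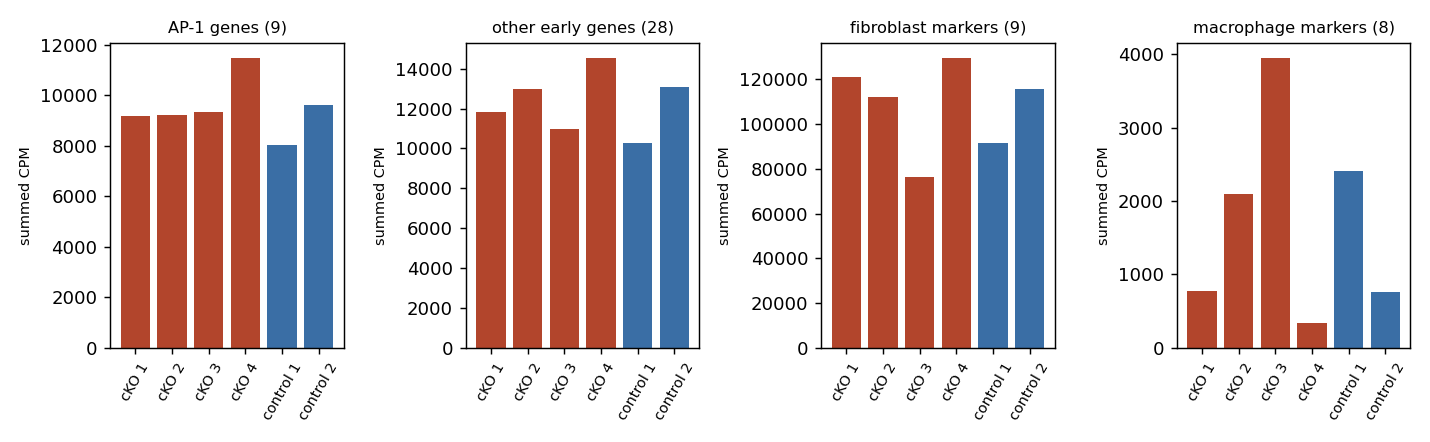
Summed CPM per library of the 9 AP-1 genes, 28 other early genes, 9 fibroblast markers and 8 macrophage markers, with Htr2b_cKO bars in red left of the control bars in blue, from 0. The library labelled Htr2b_cKO 4 is highest in the first 3 panels and lowest, at 334 CPM, in the fourth. The AP-1 sum is lowest in control 1, and the fibroblast marker sum in the library labelled Htr2b_cKO 3.

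By likeness of profile over the 6 libraries, the genes closest to Fos were Pign, Ep300, Ankrd11, Slc35a5 and Elmod2, with Pearson's r of log2 CPM from 0.987 to 0.998. For Fosl1 they were Abhd2, Smarcc1, Tnfrsf23, Mrip-ps and Ezh2, with r from 0.989 to 0.996. Each r rests on 6 points, and 301 of 12471 other genes had r above 0.9 with Fos and 224 had it with Fosl1. These values describe the 6 libraries only.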

How the data were processed

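The authors deposited estimated counts per Ensembl gene, whole numbers that are not normalized and whose column names, per the file headers, are those of a transcript quantifier. A second deposited table holds a signal normalized by the authors, with gene-specific factors in each library, and served only as an alternative. DRAGEN, DESeq2 and the build mm10 are named without roles, per the submitters' processing notes. No source used here gives the quantifier's settings or strand.

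Genes were tested with edgeR 4.0.16 (R 4.3.3) by the two-sided quasi-likelihood F test with robust dispersions, genotype as the only term, TMM scaling and filterByExpr. Benjamini-Hochberg adjustment ran over 15840 genes, with a call at an adjusted p under 0.05. The SE was obtained by dividing the absolute log2 fold change by the root of F. CPM uses TMM-scaled library sizes, and log2 CPM a prior count of 0.5. The limit set by a count of 0 was taken as 3 counts, or 0.0781 to 0.108 CPM, for counting error only. Chi-square over degrees of freedom was 47.4 to 191 in the 15 pairs of libraries, so none was a copy of another. The fit was also run on simulated counts with known changes. Its outcome is not given here, so the size of change that 4 against 2 libraries can detect is not reported.

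The members and gene lists were chosen with earlier results of these data known. Named genes were the members, Htr2b, Postn, the 3 genes of smallest p in each related list, the 2 most abundant markers of each cell type (1 marker gene is not reported here) and the 5 genes most like Fos or Fosl1 among genes with a mean log2 CPM of at least 1. Alternatives were RLE scaling, DESeq2 1.42.0, no filter, the authors' factors, a GC and length correction, and leaving out libraries. A legacy dispersion estimate was added after seeing the data.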

Additional observations from a re-analysis of the deposited data

Results flagged for a closer look

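In the 4 Htr2b_cKO libraries 1 value stood far from the other 3, by Dixon's Q, for 7 of the 41 genes examined. A rate of about 1 in 20 groups would apply only to independent, normally distributed values. The 41 genes were not drawn at random and share the same 4 libraries. The share flagged over all tested genes was not computed, so whether 7 of 41 exceeds chance cannot be told. Among the AP-1 members the flagged genes were Jun, with 2503 CPM, and Jund, with 1116 CPM. Each was the highest of the 4 Htr2b_cKO values and came from the library labelled Htr2b_cKO 4. In the same library S100a9 was at 42.2 CPM and S100a8 at 23.3 CPM, both markers of neutrophils. Control 1 had more of both, at 45.4 and 32.5 CPM, with Jun at 1674 CPM, the lowest of all 6, and Jund at 998 CPM. In control 2 Jun was at 2166 CPM and Jund at 1153 CPM, the highest Jund of all 6. In the library labelled Htr2b_cKO 3 the cardiomyocyte marker Tnnt2 was at 10.4 CPM, the dendritic cell marker Zbtb46 at 12.8 CPM and the target gene Htr2b at 0.876 CPM. The part of these cells in the Jun and Jund values was not tested.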

How the results depend on the processing

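No AP-1 member was called under any of 13 alternatives, whose adjusted p for the 9 members ran from 0.295 to 0.999. The count of genes called over the whole table was 3, against 105 with DESeq2, 5 without a filter, 5 without Htr2b_cKO 3 and 4, and 1 (without control 1) to 8 (without Htr2b_cKO 4) when 1 library was left out. The median log2 fold change of the members was 0.12, against 0.30 after the GC and length correction and -0.040 (without control 1) to 0.32 (without control 2) with 1 library left out. Of 336 estimates for single genes under an alternative, 17 changed sign. None of these genes was called in any setting. Leaving out 1 library gave -0.061 to 0.32 for Jun, -0.040 to 0.095 for Junb, -0.18 to 0.037 for Jund, -0.17 to 0.32 for Atf3 and -0.26 to 0.26 for Htr2b, which without Htr2b_cKO 3 did not pass the filter and has no estimate. Without Htr2b_cKO 3 and 4, Junb was at -0.13 and Atf3 at -0.049. Atf3 was at -0.022 with the authors' factors. After the GC and length correction Jund was at 0.19, Mapk8 at -0.14 and Spred1 at -0.065. For these changes the cause was not tested. No paired analysis was possible because the labels give no replicate numbers that pair libraries across genotypes. With 2 control libraries, the SE of the log2 fold change was 0.16 to 0.24 for the members other than Fosl1 and Batf3, where it was 0.53 and 0.59. Depth also limits Batf3, at 10 to 43 estimated counts, and Htr2b, at 0 to 29.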
